A study of Mus musculus with 9 samples.

Results

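The cytosolic ribosomal protein genes were examined in mouse skin. They were taken by symbol from the deposited table: every row whose symbol has the form Rpl or Rps with a number (and optionally a closing a, l, x or y with its own number), the stalk genes Rplp0 to Rplp2, and Rpsa. This rule found 89 of 57180 rows, and it leaves out rows with the pseudogene ending -ps and the ribosomal S6 kinases. Of the 89 genes, 43 encode large subunit proteins, 31 encode small subunit proteins and 3 encode proteins of the stalk, which makes 77 core genes. A further 6 are paralogs of core genes, and the last 6 are extra copies (Rps4l, Rpl6l, Rps3a2, Rpl32l, Rps3a3 and Rps12l1) that the GENCODE M21 annotation lists as processed pseudogenes, so the name ribosomal protein gene fits these 6 less well. Fau, which encodes a fusion of a ubiquitin-like domain with a ribosomal protein, falls outside the rule by its symbol.

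A cytosolic ribosome carries 1 copy of most of these proteins, assembled with ribosomal RNA in the nucleolus. Growing cells therefore make the proteins in matched amounts. Their mRNAs typically begin with a C followed by an unbroken pyrimidine run, the terminal oligopyrimidine (TOP) tract, through which mTOR signalling controls their translation. In the epidermis ribosome production is highest in basal, dividing keratinocytes, and free ribosomal proteins such as RPL5 and RPL11 can hold back MDM2, the inhibitor of p53, when assembly is disturbed.

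The libraries were made from skin of BALB/c nude mice, a strain that lacks a working thymus and has sparse, abnormal hair. The UVB_hCOL3A1 group (3 libraries) and the UVB_Saline group (3 libraries) came from mice whose dorsal skin was exposed to ultraviolet B (UVB) on alternate days over 8 weeks, at 60 mJ/cm² (1 minimal erythemal dose) at the start and 240 mJ/cm² (4 minimal erythemal doses) at the end, while the NoUVB group (3 libraries) was not irradiated. The study's title ties hCOL3A1 to mRNA-based delivery of type III collagen, and the other irradiated group is labelled saline. No source used here gives the dose, carrier or route, and tissue collection is placed at day 28 without saying from when the days were counted. Nothing says whether the 3 libraries of a group came from separate animals, so p-values measure the spread between libraries, which may be technical. In whole skin, fewer cells of a type and less RNA per cell cannot be told apart.

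Each library held 7640171.53 to 12927410.5 estimated counts. The 18S ribosomal RNA row Rn18s-rs5 took 34.34 to 55.34% of the counts in 8 libraries and 7.711% in NoUVB 2, which left 4274106 to 7402229 counts elsewhere. In a principal component analysis of all tested genes UVB_Saline 3 and UVB_hCOL3A1 3 stood apart on the first component, which held 31.6% of the variance. All 8 basal keratinocyte markers and all 8 fibroblast markers were detected, and 9 of 10 hair follicle markers were detected with summed CPM of 5642, 5995 and 2447 in UVB_hCOL3A1, 8593, 5293 and 1172 in UVB_Saline, and 11420, 9508 and 5946 in NoUVB. CPM here are counts scaled to library size after TMM normalisation of library composition.

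Annotated transcription starts of these genes showed the pyrimidine tract more often than those of other genes. RefSeq windows (GRCm38.p6, 250 bases before and 50 from the start) were matched by symbol for 64 of the 89 genes, which had 76 windows. A C at the start followed directly by at least 4 pyrimidines stood in 18.4% of these windows, against 2.51% of all 32851 windows. Of 4 motifs searched on both strands, CTCTTTC, which can overlap the start tract, stood in 27.6% of the windows against 8.16% of all, and CCGGAAG, the core of ETS family sites, in 35.5% against 8.86%. The E-box CACGTG stood in 10.5% against 7.15%, and TATAAA in 10.5% against 13.6%. The motifs were chosen after the windows had been seen, and a match is a description of letters and not of a bound site. The starts below (25 bases before and 30 from the start) belong to genes described further on, with the pyrimidine run at the start in capitals. Rpl28, Rps6, Rps18 and Rplp2 show the run at the annotated first base. Rplp0 and the paralogs Rps27l, Rpl22l1 and Rpl3l have no such run at that base. The core genes Rpl13a, Rpl19 and Rpl26, whose starts are not printed, have none there either. By class, the run stood in 19.4% of 67 core gene windows and in 11.1% of 9 paralog and copy windows.
Rpl28, chr7:4792940-4792994, plus strand: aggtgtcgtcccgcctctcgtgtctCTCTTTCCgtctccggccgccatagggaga
Rps6, chr4:86857338-86857392, minus strand: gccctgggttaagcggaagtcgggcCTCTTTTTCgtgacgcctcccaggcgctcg
Rps18, chr17:33955636-33955690, minus strand: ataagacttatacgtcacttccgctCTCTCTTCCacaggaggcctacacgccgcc
Rplp2, chr7:141447626-141447680, plus strand: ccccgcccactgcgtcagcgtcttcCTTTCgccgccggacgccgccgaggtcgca
Rplp0, chr5:115559442-115559496, plus strand: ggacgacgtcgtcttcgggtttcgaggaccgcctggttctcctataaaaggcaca
Rps27l, chr9:66946061-66946115, plus strand: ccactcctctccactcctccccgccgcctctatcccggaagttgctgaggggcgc
Rpl22l1, chr3:28805483-28805537, plus strand: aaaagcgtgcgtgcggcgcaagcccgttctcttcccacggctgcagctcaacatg
Rpl3l, chr17:24727801-24727855, plus strand: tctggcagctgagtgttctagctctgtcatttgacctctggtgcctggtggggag

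Ribosomal protein mRNA made up about the same small part of the library in every group. The 89 genes together took 2.35, 2.448 and 2.149% of the counts outside Rn18s-rs5 in UVB_hCOL3A1 libraries, 2.258, 2.216 and 1.852% in UVB_Saline libraries, and 2.173, 2.218 and 2.291% in NoUVB libraries. The group means were 2.316 ± 0.152% in UVB_hCOL3A1, 2.108 ± 0.223% in UVB_Saline and 2.227 ± 0.0595% in NoUVB (SD, n = 3 each). The 3 groups overlapped: the lowest library was UVB_Saline 3 and the highest UVB_hCOL3A1 2. Counting error was small beside this spread, with Wilson 95% intervals reaching 0.0108 to 0.0138 percentage points to either side, which cover counting error only.

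**Figure D1:**
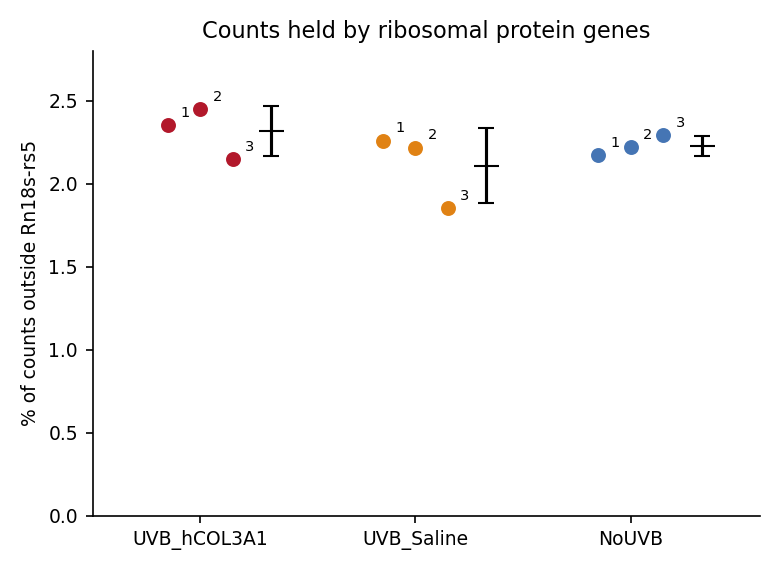
Share of counts outside Rn18s-rs5 (vertical axis, %) taken by the 89 ribosomal protein genes in each library, by group, with replicate numbers on the points and the group mean ± SD at the right of each group. The libraries lie between 1.852 and 2.448%, and the 3 groups overlap.

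None of the 86 ribosomal protein genes with enough counts to be tested passed an adjusted p of 0.05 in any of the 3 comparisons (edgeR quasi-likelihood test with Benjamini-Hochberg adjustment over 17168 genes). Across all genes tested the same rule called 0.0175% for UVB_Saline against NoUVB, 0% for UVB_hCOL3A1 against UVB_Saline and 0.0408% for UVB_hCOL3A1 against NoUVB, so few genes of any kind were called. The smallest adjusted p among the 86 genes was 0.266, 0.225 and 0.332 in these comparisons, in the same order. DESeq2 called 1 of these genes, Rpl28, in each of the first 2 comparisons and none in the last, and limma voom called none in any. Over all genes DESeq2 called 100, 173 and 269 in the same order. The 3 genes not tested were Rpl10l with 1 count in UVB_hCOL3A1 2 and 0 elsewhere, Rps12l1 with 0 counts throughout, and Rps3a3 with 2 to 10 counts a library.

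In UVB_Saline skin against NoUVB skin most of the 86 genes were slightly lower. The fitted log2 difference was negative for 62 and positive for 24 of them, with a median of −0.11 beside 0.011 over all genes tested. At an unadjusted p under 0.05, 9 genes were lower and 1 higher, where 4.6% and 4.93% of all genes were. All 3 UVB_Saline libraries lay below all 3 NoUVB libraries for 17 of the 86 genes, against 6.61% of all genes, and above them for 2, Rps18 and Rps27a, against 7.18%. Of those 17 genes 13 encode large subunit proteins, 3 encode small subunit proteins, Rps6 and Rps24 among them, and 1 is the copy Rpl6l. The median moved to −0.053 without UVB_Saline 3 and to −0.066 without NoUVB 3. All 8 adipocyte markers were lower in UVB_Saline than in NoUVB by sign, 6 of them at an unadjusted p under 0.05, with a median log2 difference of −1.1 and summed CPM of 448 to 673 in UVB_Saline and 613 to 1578 in NoUVB. The part of such differences between cell types in the ribosomal protein values was not tested.

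In UVB_hCOL3A1 skin against UVB_Saline skin most of the genes were slightly higher. The log2 difference was positive for 59 and negative for 27, with a median of 0.089 beside −0.024 over all genes tested. At an unadjusted p under 0.05, 5 genes were higher and 3 lower, where 5.97% and 5.32% of all genes were. The libraries of the 2 groups did not overlap for 10 genes that were higher (Rpl9, Rpl19, Rpl28, Rpl32, Rpl36, Rps6, Rps12, Rps20, Rps24 and Rps27), against 8.95% of all genes, and for 3 that were lower (Rplp1, Rps14 and Rps18), against 8.33%. The median was 0.040 without UVB_hCOL3A1 2, 0.048 without UVB_Saline 3 and 0.135 without UVB_hCOL3A1 3. This comparison and the one before share the UVB_Saline libraries, so a low UVB_Saline library enters both with opposite signs.

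Markers of several cell types also differed between UVB_hCOL3A1 and UVB_Saline, none past the adjusted threshold. All 8 fibroblast markers were higher by sign (7 at an unadjusted p under 0.05; median log2 difference 0.60), with summed CPM of 7122 to 8546 in UVB_hCOL3A1 and 5570 to 5983 in UVB_Saline. All 8 adipocyte markers (median 1.03; summed CPM 761 to 1291 in UVB_hCOL3A1 and 448 to 673 in UVB_Saline) and all 5 lymphatic markers (median 0.58; summed CPM 104 to 114 in UVB_hCOL3A1 and 66 to 81.2 in UVB_Saline) were higher as well. All 8 basal keratinocyte markers were lower by sign (3 at an unadjusted p under 0.05; median −0.25), with summed CPM of 3073 to 3675 in UVB_hCOL3A1 and 3107 to 5342 in UVB_Saline. The median was −0.46 over 9 abundant noncoding and ribosomal RNAs and −0.41 over 13 mitochondrially encoded genes. The part of these differences in the ribosomal protein values was not tested.

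The median difference was smallest between UVB_hCOL3A1 skin and NoUVB skin, a comparison that shares its libraries with the other 2. On the log2 scale it was −0.038, with 27 genes positive and 59 negative, beside −0.0051 over all genes tested. At an unadjusted p under 0.05, 2 genes were higher and 1 lower, where 6.29% and 5.52% of all genes were. The groups did not overlap for 1 gene that was higher, Rpl3l, and for 2 that were lower, Rpl37a and Rps15, against 10.7% of all genes in each direction. The sign of this median was not stable: it was 0.014 without NoUVB 3, 0.019 without UVB_hCOL3A1 3, −0.012 without UVB_hCOL3A1 1, −0.058 without NoUVB 1 and −0.085 without UVB_hCOL3A1 2. With library size outside Rn18s-rs5 in place of TMM scaling it was 0.067 while the median of all genes moved to 0.10, and with total library size alone it was −0.16 while that of all genes moved to −0.12. In this comparison 9 of the 13 mitochondrially encoded genes were lower at an unadjusted p under 0.05 (median log2 difference −0.74; summed CPM 16037 to 22520 in UVB_hCOL3A1 and 25707 to 34941 in NoUVB), and their part in the ribosomal protein values was not tested.

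The intervals were narrow for these abundant genes. The median distance between the estimate and the end of its 95% interval was 0.241 on the log2 scale in each comparison, against 0.465 to 0.468 over all genes. The whole interval lay within a 1.5-fold difference for 73 of the 86 genes in UVB_Saline against NoUVB, for 72 in UVB_hCOL3A1 against UVB_Saline and for 76 in UVB_hCOL3A1 against NoUVB. It lay within a 2-fold difference for 80 of the 86 genes in each comparison.

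**Figure D2:**
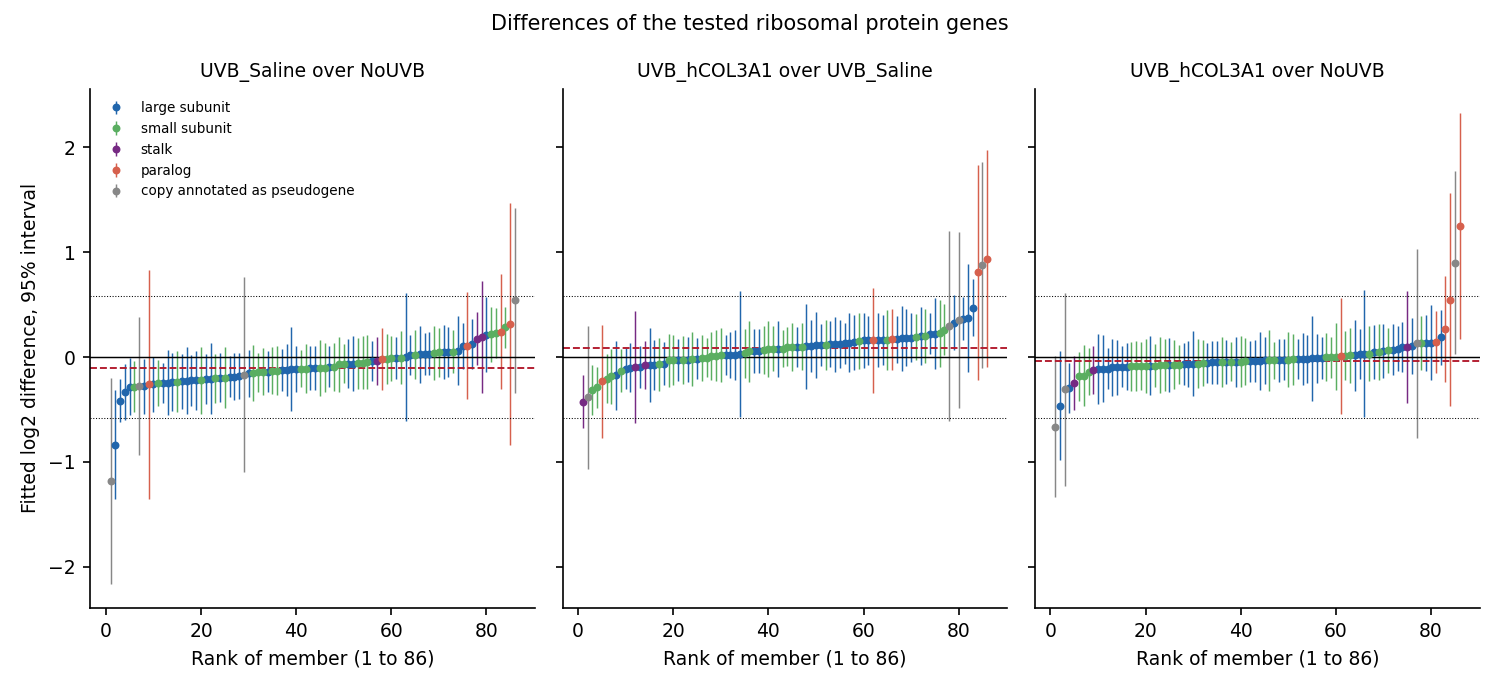
Fitted log2 difference (vertical axis) with its 95% interval for the 86 tested ribosomal protein genes, ranked within each of 3 panels and coloured by class, for UVB_Saline against NoUVB, UVB_hCOL3A1 against UVB_Saline and UVB_hCOL3A1 against NoUVB. The red dashed lines mark medians of −0.11, 0.089 and −0.038, the dotted lines a 1.5-fold difference, and the wide intervals at the ends belong mostly to low paralogs and copies.

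The genes moved together from library to library by a small amount. For each library the mean log2 CPM over the 79 genes with a mean log2 CPM of at least 3, relative to each gene's own mean over the 9 libraries, was −0.018, 0.11 and −0.062 in UVB_hCOL3A1, 0.036, −0.018 and −0.17 in UVB_Saline, and −0.042, 0.052 and 0.12 in NoUVB. The largest of these shifts, in UVB_Saline 3, was a lower level, and libraries of 1 group lay on both sides of 0. Among these 79 genes, 51.6% of the variance lay on a first principal component and 14% on the next, and 95.4% of single values lay within 0.25 log2 units of their library's shift. The SD of a gene around the library shift had a median of 0.104. It was smallest for Rpl30 (0.0359, a large subunit protein that also regulates its own mRNA in yeast) and also small for Rpl6, and it was largest for Rpl21, Rplp0 and Rpl24, which are taken up again with their near-identical rows.

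Of the 43 large subunit genes 32 were lower in UVB_Saline than in NoUVB by the sign of the fitted difference, beside 24 of 31 small subunit genes, and no test compared the subunits. Over the 43 genes the median log2 difference was −0.13 in UVB_Saline against NoUVB, 0.11 in UVB_hCOL3A1 against UVB_Saline and −0.037 in UVB_hCOL3A1 against NoUVB. Rpl28 (ENSMUSG00000030432) encodes a large subunit protein that budding yeast lacks. It had 308, 358 and 314 CPM in UVB_hCOL3A1, 272, 251 and 238 CPM in UVB_Saline, and 343, 341 and 332 CPM in NoUVB. Every UVB_Saline library lay below every library of the other 2 groups. Its log2 difference was −0.42 ± 0.09 (SE; 95% interval −0.62 to −0.21) in UVB_Saline against NoUVB, with an edgeR adjusted p of 0.266, and 0.37 ± 0.09 (0.16 to 0.57) in UVB_hCOL3A1 against UVB_Saline, with an edgeR adjusted p of 0.225. DESeq2 gave Rpl28 adjusted p-values of 0.0136 and 0.0308 for these comparisons, so the call on this gene depended on the tool.

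Rpl36, Rpl19 and Rpl26 had the next smallest p-values among large subunit genes in UVB_hCOL3A1 against UVB_Saline. Rpl36 had 67.1, 88.8 and 80.3 CPM in UVB_hCOL3A1, 59.6, 61.4 and 49.1 CPM in UVB_Saline, and 69.9, 73.3 and 71.4 CPM in NoUVB, and here too UVB_Saline was the lowest group without overlap. Its log2 difference was 0.47 ± 0.12 in UVB_hCOL3A1 against UVB_Saline (edgeR adjusted p = 0.229) and −0.33 ± 0.12 in UVB_Saline against NoUVB (edgeR adjusted p = 0.441). Rpl19, whose protein takes part in a bridge between the subunits, had 311, 354 and 314 CPM in UVB_hCOL3A1, 293, 265 and 282 CPM in UVB_Saline, and 327, 328 and 342 CPM in NoUVB. Rpl26, whose human protein binds p53 mRNA, had 91.9, 106 and 78.8 CPM in UVB_hCOL3A1, 81.6, 72.4 and 66.9 CPM in UVB_Saline, and 87.9, 88.2 and 91.6 CPM in NoUVB. UVB_Saline lay below NoUVB without overlap for both, but overlapped UVB_hCOL3A1 for Rpl26. The log2 differences in UVB_hCOL3A1 against UVB_Saline were 0.22 ± 0.09 for Rpl19 (edgeR adjusted p = 0.392) and 0.33 ± 0.12 for Rpl26 (edgeR adjusted p = 0.368).

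Rpl5 and Rpl11, which carry 5S ribosomal RNA and bind MDM2, showed small differences. Rpl5 had 312, 302 and 284 CPM in UVB_hCOL3A1, 313, 285 and 266 CPM in UVB_Saline, and 297 to 333 CPM in NoUVB. Rpl11 had 161, 193 and 171 CPM in UVB_hCOL3A1, 164, 159 and 157 CPM in UVB_Saline, and 183, 178 and 186 CPM in NoUVB. The groups overlapped for Rpl5, whereas for Rpl11 UVB_Saline lay below NoUVB without overlap (log2 difference −0.19 ± 0.09, edgeR adjusted p = 0.549). Rpl37a was the large subunit gene with the smallest p in UVB_hCOL3A1 against NoUVB, with 74, 98 and 83 CPM in UVB_hCOL3A1, 96.6, 85.7 and 86.1 CPM in UVB_Saline, and 102, 104 and 106 CPM in NoUVB. Its log2 difference was −0.30 ± 0.11 (edgeR adjusted p = 0.332), and every NoUVB library was above the other 6. With the near-identical rows of Rpl37a added, as described further on, the log2 difference was −0.11 ± 0.10 (edgeR adjusted p = 0.718), and UVB_hCOL3A1 (99.27 to 116.6 CPM) and UVB_Saline (93.23 to 112 CPM) both overlapped NoUVB (109.4 to 122.5 CPM). Rpl13a, whose human protein leaves the ribosome to repress inflammatory mRNAs, had 475, 408 and 395 CPM in UVB_hCOL3A1, 398, 352 and 413 CPM in UVB_Saline, and 392, 434 and 527 CPM in NoUVB, and its groups overlapped. Rpl4, the gene with the highest CPM, had 725, 801 and 681 CPM in UVB_hCOL3A1, 730.4, 665 and 576 CPM in UVB_Saline, and 752, 754 and 773 CPM in NoUVB. Rpl39, a short protein lining the exit tunnel, had 81.5, 93.8 and 86.2 CPM in UVB_hCOL3A1, 82, 86.7 and 68.6 CPM in UVB_Saline, and 67.6, 76.8 and 85 CPM in NoUVB. UVB_Saline was the lowest group for Rpl4, without overlap with NoUVB, whereas Rpl39 had its lowest mean in NoUVB and overlapped in every comparison.

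The small subunit genes included Rps14 and Rps18, whose own rows had their highest means in UVB_Saline. Over the 31 genes the median log2 difference was −0.093 in UVB_Saline against NoUVB, 0.037 in UVB_hCOL3A1 against UVB_Saline and −0.046 in UVB_hCOL3A1 against NoUVB, and the 95% interval lay within a 1.5-fold difference for all 31 in each comparison. Rps6, the substrate of the S6 kinases below mTOR, had 356, 404 and 351 CPM in UVB_hCOL3A1, 331, 325 and 272 CPM in UVB_Saline, and 340.0, 391 and 397 CPM in NoUVB. UVB_Saline was the lowest group without overlap, with a log2 difference of −0.28 ± 0.11 against NoUVB (edgeR adjusted p = 0.467) and of 0.26 ± 0.11 for UVB_hCOL3A1 against UVB_Saline (edgeR adjusted p = 0.424). Rps24, one of the 3 genes with the highest CPM, had 549.8, 556 and 562 CPM in UVB_hCOL3A1, 514, 474 and 470.5 CPM in UVB_Saline, and 517, 576 and 642 CPM in NoUVB, again with UVB_Saline lowest. Rps3a1, the third highest gene by mean log2 CPM, had 448, 528 and 453 CPM in UVB_hCOL3A1, 529.6, 401 and 444 CPM in UVB_Saline, and 487, 516 and 615 CPM in NoUVB, and its groups overlapped.

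Rps14 and Rps18 were highest in UVB_Saline. Rps14, a platform protein whose reduced dose underlies a human anaemia, had 86.2, 87 and 78 CPM in UVB_hCOL3A1, 105, 109.8 and 98.5 CPM in UVB_Saline, and 76.6, 90.3 and 99.9 CPM in NoUVB. UVB_Saline lay above UVB_hCOL3A1 without overlap (log2 difference of UVB_hCOL3A1 against UVB_Saline −0.32 ± 0.11, edgeR adjusted p = 0.337) and overlapped NoUVB. Rps18, a protein of the small subunit head, had 62, 63.7 and 58.1 CPM in UVB_hCOL3A1, 77.8, 75.6 and 70.7 CPM in UVB_Saline, and 58.2, 60 and 65.7 CPM in NoUVB. UVB_Saline lay above both other groups, with log2 differences of 0.28 ± 0.09 against NoUVB (edgeR adjusted p = 0.367) and of −0.29 ± 0.09 for UVB_hCOL3A1 against UVB_Saline (edgeR adjusted p = 0.302). These values for Rps18 rest on its own row alone, and the order of the groups changed when its near-identical rows were added, as given further on.

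Among other small subunit genes, Rpsa, Rps3, Rps19 and Rps28 overlapped between all groups, whereas Rps27a separated UVB_Saline from NoUVB. Rpsa, also known as the precursor of a laminin receptor, had 284, 362 and 289 CPM in UVB_hCOL3A1, 349, 338 and 294 CPM in UVB_Saline, and 322, 339.9 and 324 CPM in NoUVB. Rps3, which also acts in DNA repair, had 210.2, 237 and 210.1 CPM in UVB_hCOL3A1, 229, 222 and 203 CPM in UVB_Saline, and 205, 242 and 251 CPM in NoUVB. Rps19, mutated in human Diamond-Blackfan anaemia, had 109, 115 and 97.5 CPM in UVB_hCOL3A1, 111, 110.2 and 91.9 CPM in UVB_Saline, and 109, 107 and 122 CPM in NoUVB. None of these 3 genes separated any pair of groups. Rps27a, which is made as a fusion with ubiquitin, had 86.3, 73.3 and 68.5 CPM in UVB_hCOL3A1, 83.8, 87.6 and 88.1 CPM in UVB_Saline, and 63.3, 79 and 80.6 CPM in NoUVB, so that UVB_Saline lay above NoUVB (log2 difference 0.22 ± 0.12, edgeR adjusted p = 0.609). Rps28 had 59.5, 53.5 and 51.1 CPM in UVB_hCOL3A1, 58.1, 63.6 and 67.6 CPM in UVB_Saline, and 69, 57 and 60.7 CPM in NoUVB, with overlap between groups.

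Among the stalk genes only Rplp1 separated a pair of groups. Rplp1 and Rplp2 form dimers that bind Rplp0 and bring elongation factors to the ribosome. Rplp1 had 122, 130.4 and 142 CPM in UVB_hCOL3A1, 166, 192 and 171 CPM in UVB_Saline, and 133, 163 and 172 CPM in NoUVB. UVB_hCOL3A1 lay below UVB_Saline without overlap, with a log2 difference of −0.42 ± 0.12 (edgeR adjusted p = 0.255). Rplp2 had 120.5, 141 and 134 CPM in UVB_hCOL3A1, 146, 124 and 148 CPM in UVB_Saline, and 132, 146 and 152 CPM in NoUVB, and its groups overlapped, with log2 differences of −0.08 ± 0.10 in UVB_hCOL3A1 against UVB_Saline and −0.04 ± 0.10 in UVB_Saline against NoUVB. The difference between Rplp1 and its partner Rplp2 was not tested.

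**Figure D3:**
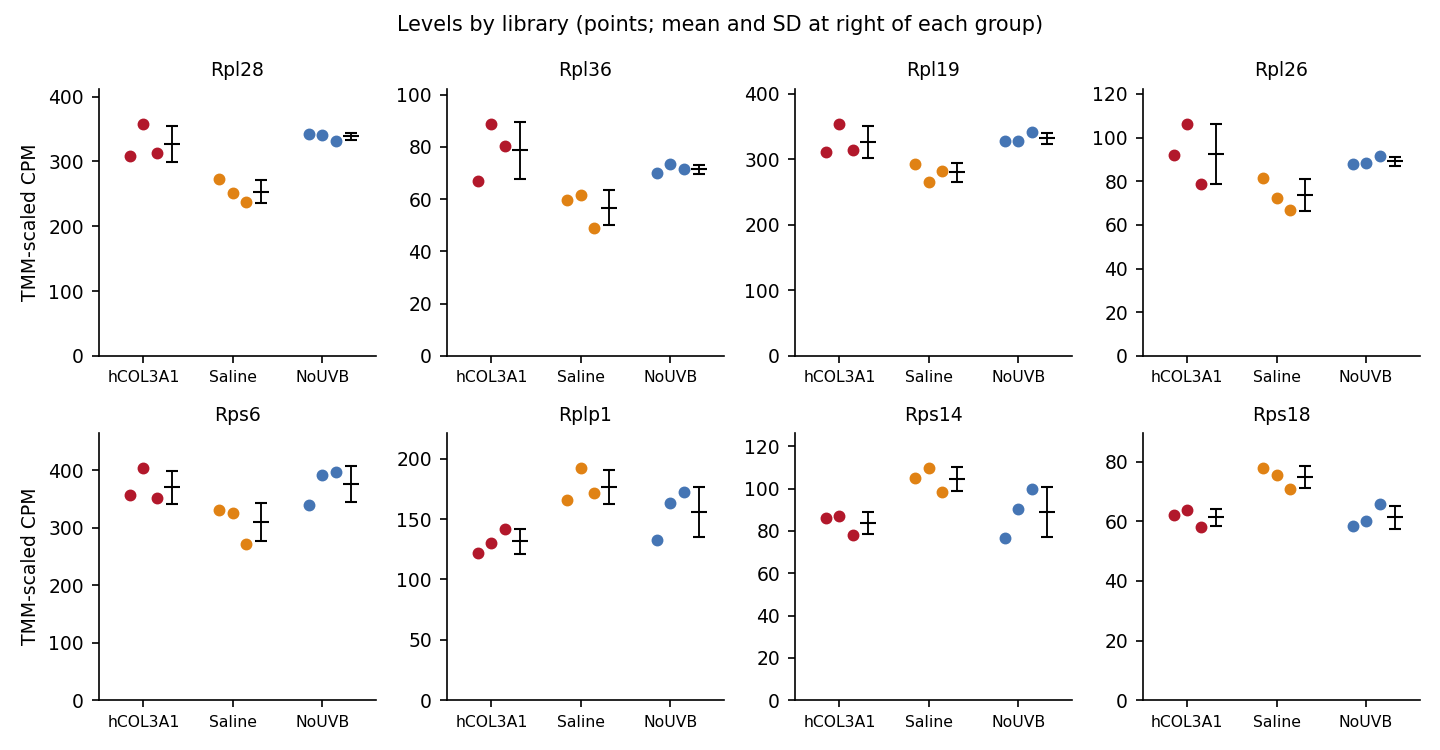
CPM (vertical axis, from 0) of Rpl28, Rpl36, Rpl19, Rpl26, Rps6, Rplp1, Rps14 and Rps18 in the 9 libraries, with the mean and SD of each group of 3. Each panel shows the gene's own row alone. UVB_Saline is the lowest group for Rpl28, Rpl36, Rpl19 and Rps6 and the highest for Rps18, and UVB_hCOL3A1 lies below UVB_Saline for Rplp1. For Rps18 this order changed when its near-identical rows were added.

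Many ribosomal protein genes have processed copies elsewhere in the genome, and for some genes such rows held many of the estimated counts. Whether these counts came from the genes or from the copies was not tested. A row outside the 89 was taken as near-identical when at least 20% of its 31-base words stood in the coding transcripts of a ribosomal protein gene, which found 718 rows, 704 of them of a pseudogene type and 509 with counts. Per 100 counts of the 89 genes, these rows held 7.72 to 9.36 counts in each library. For the median core gene 1.97% of the joint counts lay in such rows, but for 10 genes the part was over 25% and for 6 genes over 50%. The 6 were Rpl26 (67.6%), Rpl35a (60.7%), Rpl24 (60.3%), Rpl34 (56.3%), Rps18 (55.2%) and Rpl3 (54.4%), named after their values were seen. Most of the counts beside Rpl26 were in Gm15772 (99.3%), beside Rpl24 in Gm28037 (96.3%) and beside Rps18 in Rps18-ps6 (91.8%). Gm13841 and Gm8210, both near-identical to Rpl29, held equal totals of 1154.7 counts each, and Rpl35a-ps2 and Rpl35a-ps3 held 509.79 each.

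The spread of the 3 most variable genes, and the direction of Rps18, changed when the rows were added to each gene. The sum was an alternative chosen after seeing the data. Rplp0 alone had 336, 288 and 342 CPM in UVB_hCOL3A1, 353, 379 and 299.9 CPM in UVB_Saline, and 381, 342 and 181 CPM in NoUVB, with the lowest value in NoUVB 3. Its near-identical rows had 23.4, 100.1 and 28.4 CPM in UVB_hCOL3A1, 36.8, 35.1 and 26.4 CPM in UVB_Saline, and 30.8, 32.3 and 171 CPM in NoUVB, with the highest value in that same library. The joint values were 359.5, 388 and 370.2 CPM in UVB_hCOL3A1, 389, 414 and 326 CPM in UVB_Saline, and 411, 374 and 352 CPM in NoUVB. The joint log2 difference of UVB_Saline against NoUVB was −0.01 ± 0.11 (edgeR adjusted p = 0.985), where that of the Rplp0 row alone was 0.19 ± 0.24 (edgeR adjusted p = 0.845).

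Rpl21 alone had 134, 196 and 143 CPM in UVB_hCOL3A1, 141, 131 and 93.2 CPM in UVB_Saline, and 174, 194 and 284 CPM in NoUVB. Its log2 difference in UVB_Saline against NoUVB, −0.84 ± 0.23 (95% interval −1.35 to −0.32, edgeR adjusted p = 0.353), was the lowest among core genes. With its near-identical rows Rpl21 had 225, 319.5 and 243 CPM in UVB_hCOL3A1, 225, 204 and 161 CPM in UVB_Saline, and 303, 309 and 342 CPM in NoUVB, and the log2 difference was −0.69 ± 0.15 (edgeR adjusted p = 0.266). NoUVB lay above UVB_Saline without overlap either way, and the SE was smaller for the sum. Rps18 with its rows had 135, 174 and 135 CPM in UVB_hCOL3A1, 156, 148 and 121 CPM in UVB_Saline, and 145, 154 and 157 CPM in NoUVB. UVB_Saline was then no longer the highest group: the joint log2 differences were −0.11 ± 0.13 in UVB_Saline against NoUVB (edgeR adjusted p = 0.835) and 0.07 ± 0.13 in UVB_hCOL3A1 against UVB_Saline (edgeR adjusted p = 0.890), of opposite sign to those of the row alone.

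Rpl24 alone had 49.6, 33.8 and 30 CPM in UVB_hCOL3A1, 41.4, 47.1 and 22.7 CPM in UVB_Saline, and 34.2, 39.7 and 37.1 CPM in NoUVB. The sum for Rpl24 was 105, 114 and 89.6 CPM in UVB_hCOL3A1, 99, 85.9 and 71 CPM in UVB_Saline, and 99.3, 97.2 and 102 CPM in NoUVB, and the SE of its log2 difference was 0.129 for the sum against 0.27 for the row. Over all 86 genes the sums gave no call in any comparison and medians close to those of the rows: −0.11 in UVB_Saline against NoUVB (18 positive, 68 negative), 0.098 in UVB_hCOL3A1 against UVB_Saline (64 positive, 22 negative) and −0.032 in UVB_hCOL3A1 against NoUVB (27 positive, 59 negative). The sign of Rpl37a in UVB_hCOL3A1 against UVB_Saline also turned, to a joint log2 difference of 0.08 from its row's −0.07.

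**Figure D4:**
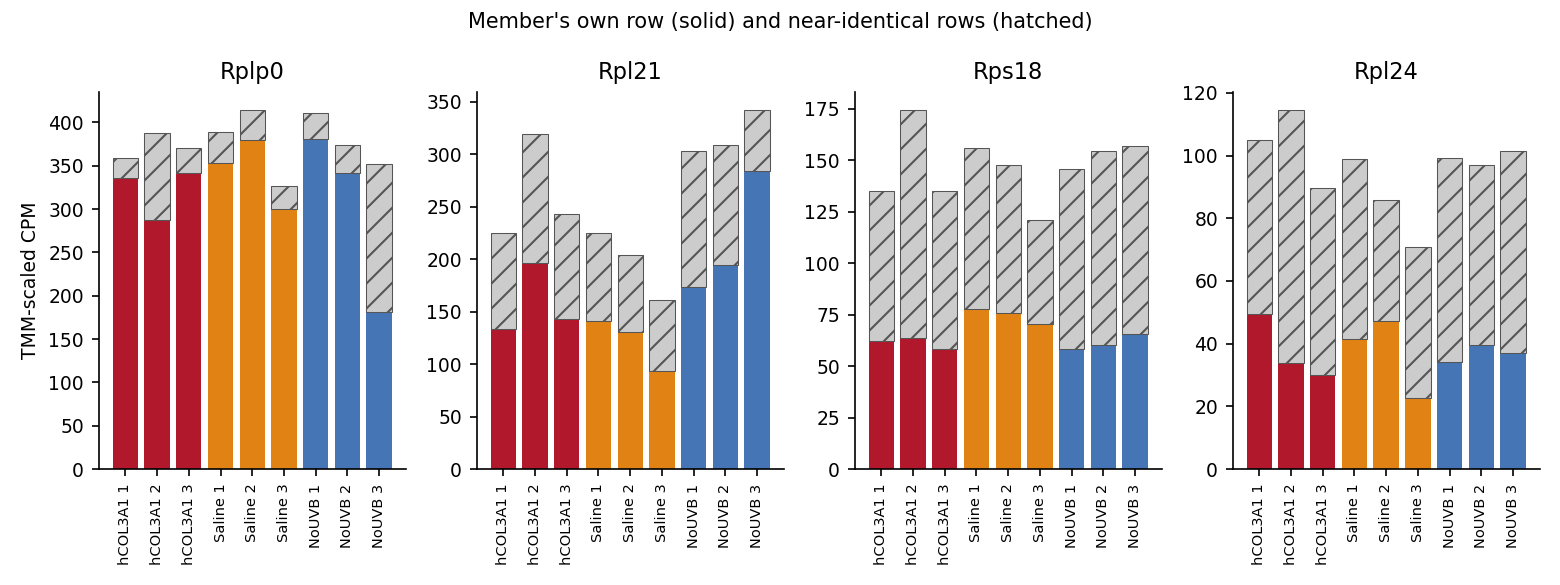
CPM (vertical axis, from 0) of Rplp0, Rpl21, Rps18 and Rpl24 in each library, with the gene's own row as the solid bar and its near-identical rows hatched on top. In NoUVB 3 the Rplp0 row is low at 181 CPM while the near-identical rows hold 171 CPM, and the joint bar, 352 CPM, stands near those of the other libraries.

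Levels differed widely between core genes even per length. Dividing the mean CPM by the transcript length gave 36 CPM per kb for the lowest core gene, Rpl35a, a median of 186 and 573.6 for the highest, Rpl23a (lowest and highest genes on this scale were named after their values were seen). The quartiles were 128.6 and 274 CPM per kb, a 2.13-fold range. With the near-identical rows added the quartiles were 150.4 and 288.3 CPM per kb, a 1.917-fold range around a median of 206.3. Rpl35a then stood at 91.6 CPM per kb against 36 for its row, Rpl24 at 142 against 55.1, Rpl3 at 206 against 94.0, and Rpl26 at 501 against 162. The length chosen matters for Rps20, whose transcript in the annotation is 3706 nt, so that it ranked 76 of 77 per transcript length and 23 of 77 per coding length.

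The paralogs were expressed at a small part of the level of the genes they resemble. Per kb, Rps27l, a p53-inducible relative of Rps27, had 18.0 CPM per kb against 278 for Rps27. Rpl22l1, whose mRNA is held down by Rpl22 protein in mouse cells, had 5.67 CPM per kb against 220 for Rpl22. Rpl7l1 had 15.4 CPM per kb against 151 for Rpl7. Rpl39l, known from the testis, had 2.29 CPM per kb against 132 for Rpl39, and Rpl3l, a paralog of striated muscle, had 1.09 CPM per kb against 94.0 for Rpl3. Rpl10l, a paralog of Rpl10 that works in male germ cells, was at 0 counts in 8 libraries.

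Rpl3l was the paralog with the largest difference between groups. It had 1.6, 2.63 and 2.7 CPM in UVB_hCOL3A1, 0.411, 1.32 and 1.84 CPM in UVB_Saline, and 1.28, 1.07 and 0.577 CPM in NoUVB. UVB_hCOL3A1 lay above NoUVB without overlap and overlapped UVB_Saline, with log2 differences of 1.25 ± 0.49 (95% interval 0.17 to 2.33, edgeR adjusted p = 0.356) and 0.94 ± 0.47 (edgeR adjusted p = 0.481). The 9 skeletal muscle markers, all detected, had summed CPM of 956, 1258 and 1591 in UVB_hCOL3A1, 246, 803 and 637 in UVB_Saline, and 1195, 363 and 346 in NoUVB. The lowest Rpl3l value and the lowest muscle sum were both in UVB_Saline 1. Other libraries differed in order: NoUVB 1 had a higher muscle sum than UVB_hCOL3A1 1 (1195 against 956) but less Rpl3l (1.28 against 1.6 CPM). The part of muscle tissue in the Rpl3l difference was not tested.

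The other paralogs overlapped between all groups. Rps27l had 9.91, 11.5 and 8.31 CPM in UVB_hCOL3A1, 12.4, 7.32 and 6.94 CPM in UVB_Saline, and 7.39, 8.84 and 8.37 CPM in NoUVB, with log2 differences of 0.11 ± 0.23 in UVB_Saline against NoUVB and 0.16 ± 0.23 in UVB_hCOL3A1 against UVB_Saline. Rpl22l1 had 3.58, 3.01 and 2.27 CPM in UVB_hCOL3A1, 3.59, 3.95 and 2.93 CPM in UVB_Saline, and 2.7, 2.68 and 3.46 CPM in NoUVB. Rpl39l had 1.45, 1.79 and 1.73 CPM in UVB_hCOL3A1, 1.54, 0.74 and 0.542 CPM in UVB_Saline, and 1.85, 0.625 and 1.06 CPM in NoUVB. UVB_Saline 1 was the highest UVB_Saline library for Rps27l and Rpl39l. Rpl7l1 was the most abundant paralog by CPM and the steadiest, with 19.9, 23.2 and 21.9 CPM in UVB_hCOL3A1, 22.5, 17.4 and 18 CPM in UVB_Saline, and 18.7, 18.4 and 21.5 CPM in NoUVB.

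The copies were low and variable. Among the copies annotated as processed pseudogenes, Rpl6l had 2.97, 3.48 and 1.19 CPM in UVB_hCOL3A1, 1.64, 1.64 and 0.867 CPM in UVB_Saline, and 2.7, 2.23 and 4.62 CPM in NoUVB, where UVB_Saline lay below NoUVB (log2 difference −1.19 ± 0.44, edgeR adjusted p = 0.447). Rps3a2 had 11.7, 4.7 and 9.82 CPM in UVB_hCOL3A1, 5.54, 9.78 and 4.99 CPM in UVB_Saline, and 3.27, 4.38 and 6.25 CPM in NoUVB, with a log2 difference of 0.90 ± 0.39 in UVB_hCOL3A1 against NoUVB (edgeR adjusted p = 0.408) and overlap between all groups. Rpl32l had 1.45, 1.98 and 2.37 CPM in UVB_hCOL3A1, 3.18, 2.47 and 1.84 CPM in UVB_Saline, and 3.27, 2.32 and 3.56 CPM in NoUVB. Rps4l, a copy of Rps4x, had 2.59, 2.26 and 2.59 CPM in UVB_hCOL3A1, 3.49, 1.4 and 1.19 CPM in UVB_Saline, and 3.27, 2.05 and 1.64 CPM in NoUVB, and its groups overlapped as well. Reads of these copies cannot be told with certainty from those of the parent genes.

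**Figure D5:**
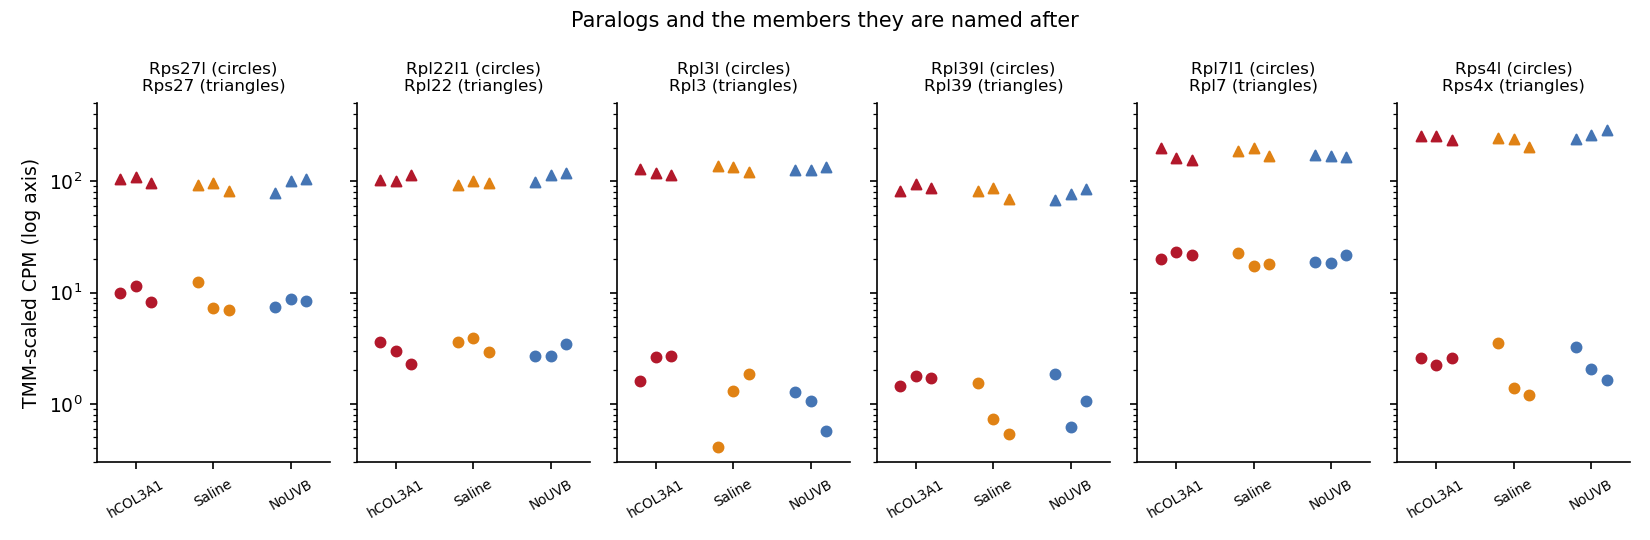
CPM (vertical log axis) of 5 paralogs and the copy Rps4l (circles) and of the core genes they resemble (triangles) in the 9 libraries, in 6 panels by pair. Each of them lies far below its partner in every library, and Rpl3l is higher in UVB_hCOL3A1 (1.6 to 2.7 CPM) than in NoUVB (0.577 to 1.28 CPM).

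Genes that work with ribosomal proteins were described from lists of other steps of ribosome production and translation, and no gene of any of these lists passed an adjusted p of 0.05 in any comparison. The 78 mitochondrial ribosomal protein genes, which serve a separate ribosome, had median log2 differences of 0.057 in UVB_Saline against NoUVB, 0.055 in UVB_hCOL3A1 against UVB_Saline and 0.11 in UVB_hCOL3A1 against NoUVB. The 29 other translation genes with TOP-type mRNAs had medians of −0.027, 0.025 and −0.012 in that order of comparisons. For 56 of 57 ribosome biogenesis genes the medians were 0.017, −0.057 and −0.041, for 15 of 16 chaperones and importers of ribosomal proteins 0.013, 0.042 and 0.039, for 28 regulators −0.0095, −0.078 and −0.040, and for 22 initiation factors 0.061, −0.025 and −0.0096. The medians were 0.23, −0.098 and 0.090 for 21 of 22 p53 targets and 0.29, −0.27 and 0.16 for 11 proliferation genes.

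Some genes of these lists separated the groups without passing the test. Fau, which encodes the small subunit protein Rps30 as a fusion, had 130.7, 117.3 and 135.6 CPM in UVB_hCOL3A1, 108.1, 104.2 and 111 CPM in UVB_Saline, and 107.5, 122 and 121.1 CPM in NoUVB. Its log2 difference in UVB_hCOL3A1 against UVB_Saline was 0.25 ± 0.09 (edgeR adjusted p = 0.370). Eif6, which keeps free large subunits from joining small ones, had 18.83, 22.96 and 20.08 CPM in UVB_hCOL3A1, 25.46, 24.66 and 32.85 CPM in UVB_Saline, and 20.31, 20.27 and 17.41 CPM in NoUVB. UVB_Saline was highest for Eif6 without overlap, with log2 differences of 0.52 ± 0.14 against NoUVB and −0.42 ± 0.14 for UVB_hCOL3A1 against UVB_Saline (edgeR adjusted p = 0.332 for both). Heatr1, a nucleolar factor for transcription of ribosomal RNA genes, had 23.1, 23.05 and 20.72 CPM in UVB_hCOL3A1, 28.23, 26.64 and 29.7 CPM in UVB_Saline, and 21.87, 20.9 and 23.47 CPM in NoUVB, again with UVB_Saline highest.

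Among p53 targets, Perp, a desmosomal protein gene, had 230.7, 228.5 and 246 CPM in UVB_hCOL3A1, 396, 362.2 and 342.4 CPM in UVB_Saline, and 276, 262.4 and 335.1 CPM in NoUVB. Its log2 difference in UVB_hCOL3A1 against UVB_Saline was −0.64 ± 0.11 (edgeR adjusted p = 0.131). Cdkn1a, which encodes the cell cycle inhibitor p21, had 50.32, 54 and 48.36 CPM in UVB_hCOL3A1, 70.21, 61.66 and 62.98 CPM in UVB_Saline, and 49.14, 50.54 and 53.38 CPM in NoUVB. UVB_Saline was the highest group for both genes without overlap. Xpc, another p53 target, went the other way. It had 23.64, 22.49 and 28.71 CPM in UVB_hCOL3A1, 20.53, 24.75 and 20.6 CPM in UVB_Saline, and 31.39, 28.04 and 29.63 CPM in NoUVB. Its log2 difference in UVB_Saline against NoUVB was −0.43 ± 0.13 (edgeR adjusted p = 0.359), without overlap. By sign 17 of the 21 targets were higher and 4 lower in that comparison. Myc, an activator of ribosomal protein genes, had 38.04, 44.69 and 39.29 CPM in UVB_hCOL3A1, 52.76, 42.59 and 34.69 CPM in UVB_Saline, and 50.71, 53.94 and 62.71 CPM in NoUVB, with a log2 difference of −0.46 ± 0.15 in UVB_hCOL3A1 against NoUVB (edgeR adjusted p = 0.281).

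Genes outside the set whose log2 CPM followed the mean of the 86 tested ribosomal protein genes most closely over the 9 libraries, among 8800 scanned, included Orm1 (Pearson r 0.958), Snrpa (0.948), Rbis (0.928), Cpsf3 (0.928), Adh7 (0.926), Aldh3a1 (0.925) and Tmprss11e (0.924). This likeness is a description over libraries that share their depth and scaling.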

How the data were processed

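Bulk RNA-seq of skin was analysed in 9 libraries, 3 per group. The authors deposited 1 table of estimated counts per gene; 11.1 to 14% of the values in a library were not whole, and counts were rounded for the tests. RSEM 1.3.3, STAR 2.7.11b, DESeq2 1.44.0, Bowtie2 2.5.4, fastp 0.23.4 and the build GRCm39 appear, without roles, in what the submitters noted of their processing. No source states strand, so reads of a gene and of one overlapping it cannot be separated, and 30 of the ribosomal protein genes hold 58 snoRNA genes. Reads were 150 bp paired, and all libraries carry 1 batch label. Libraries of a group differed by more than sampling noise. Chi-square per degree of freedom was 8.18 to 250 over all genes, Rn18s-rs5 included, and 4.972 to 19.33 over the ribosomal protein genes alone.

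One edgeR 4.0.16 quasi-likelihood model of the 3 groups (R 4.3.3, TMM, robust dispersion, low-count filter of edgeR) was fitted to 17168 genes, with Benjamini-Hochberg adjustment over all of them and 6 residual degrees of freedom; the common biological coefficient of variation was 0.193. log2 CPM used a prior count of 2, and 95% intervals came from the model's total degrees of freedom. Lengths, gene types and shared 31-base words came from GENCODE M21 and start windows from RefSeq GRCm38.p6, an older build than that of the deposited table, so no gene coordinates beyond those windows are given. 525 identifiers had no symbol. Alternatives were DESeq2 1.42.0, limma 3.58.1 voom, other scalings and filters, the 2 groups compared alone, the replicate number as a block, pseudogene or near-identical rows added, and each library left out. Genes were named when they had the 4 smallest p-values per direction and comparison, the highest, lowest, most or least variable levels, or were listed by role, plus up to 3 of each related list with the smallest p and the 8 most alike; others are said to be chosen after their values were seen, and a few named by the rule are not reported here. The genes and lists were chosen with earlier results of these data known.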

Additional observations from a re-analysis of the deposited data

How the results depend on the processing

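No ribosomal protein gene was called under any alternative run except DESeq2, which called 1 (Rpl28) in UVB_Saline against NoUVB and 1 (Rpl28) in UVB_hCOL3A1 against UVB_Saline. With single libraries left out the number called was 0 throughout, and the median log2 difference of the 86 genes ranged between −0.1448 and −0.05322 in UVB_Saline against NoUVB, between 0.04005 and 0.135 in UVB_hCOL3A1 against UVB_Saline, and between −0.08462 and 0.01867 in UVB_hCOL3A1 against NoUVB. In the last comparison the median was −0.1642 with total library size alone and 0.06689 with library size outside Rn18s-rs5 alone; these scalings moved the median of all genes to −0.1215 and 0.1005. The share of the 89 genes was 1.311% in UVB_hCOL3A1, 1.301% in UVB_Saline and 1.481% in NoUVB as a percent of all counts, where the 18S row differed between libraries, and in NoUVB it was 2.311% with -ps rows added and 2.34% with mitochondrially encoded genes also left out of the total. Replicate numbers are in the labels, which do not say whether they mark pairs, and the main fit did not use them. After each gene's group mean was subtracted from its log2 CPM, same-numbered libraries of different groups correlated at 0.0181 to 0.41. Of these pairs 5 of 9 were over 0.1, and 6 of 9 libraries were closest to their own number. Different-numbered libraries, with the group means subtracted in the same way, correlated at −0.389 to 0.257. Whether the numbers mark pairs was not settled. With the replicate block the medians were −0.1106, 0.08565 and −0.04214 in the 3 comparisons and no ribosomal protein gene was called, while the number of all genes called was 61, 74 and 118, where it was 3, 0 and 7 without the block. Over all genes DESeq2 called 100, 173 and 269, the test without a low-count filter 73, 106 and 178, and voom 2, 0 and 0. Of 2838 alternative values for the named genes 2693 kept their sign. Depth limits the paralogs and copies, several of which had a few counts per library. The rest are limited by 3 libraries per group and by the unknown origin of counts in near-identical rows.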
